A study of Mus musculus with 4 samples.

Results

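The 9 blood cytokine receptor genes described here are Flt3, Csf1r, Csf2ra, Csf2rb, Csf3r, Il3ra, Il6ra, Il6st and Ifngr1, out of 21887 protein-coding genes in the mouse annotation. They were chosen by name as receptors of stem and myeloid progenitor cells. For each gene, all peaks were taken that overlapped the gene body extended by 10 kb on both sides (its window, RefSeq GRCm38.p6, the mm10 assembly). The windows span 448 kb in all and held 38 and 28 peaks in LSC 1 and LSC 2, and 124 and 129 peaks in HSC 1 and HSC 2, of 41097, 34185, 115881 and 235680 peaks in those lists.

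Sub1, a single-stranded DNA-binding cofactor of transcription, was mapped by CUT&Tag, which cuts and tags DNA next to an antibody bound to chromatin, in sorted bone marrow cells. The leukemia stem cells (LSCs, 2 libraries) came from Nup214fl/+ mice with MLL-AF9-driven disease and were sorted as Lin-, Sca-1-, c-Kit+, CD16/32+ and CD34+. The hematopoietic stem cells (HSCs, 2 libraries) came from Nup214fl/+ mice and were sorted as CD48- and CD150+ cells of the Lin-, Sca-1+, c-Kit+ fraction. All donors thus carried 1 floxed and 1 wild-type allele of the nuclear pore gene Nup214, and no Cre driver, age or number of mice is given. The LSC gate is also that of normal granulocyte-monocyte progenitors, so disease and stage of differentiation cannot be told apart. How MLL-AF9 was introduced, and whether the pair of libraries in each group stands for different animals, is not given, so p-values measure only the spread between these libraries, which may be technical.

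Cytokine receptors carry signals for survival, division and lineage choice to blood progenitors. Flt3 and Csf1r are receptor tyrosine kinases for Flt3 ligand and M-CSF. Csf2ra and Il3ra are the ligand-binding chains for GM-CSF and IL-3 and share the signalling chain Csf2rb, while Csf3r binds G-CSF as a pair of identical chains. Il6ra binds IL-6 and signals through Il6st, also called gp130, and Ifngr1 is the ligand-binding chain of the interferon-gamma receptor. Those without a kinase of their own signal through Jak kinases and Stat factors. In mouse marrow, Flt3 protein marks multipotent and lymphoid-primed progenitors and is low on the most primitive HSCs, whereas Csf3r and Csf1r are best known from granulocytes and from monocytes and macrophages.

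A Sub1 peak lay within 1 kb of the start of every receptor gene in every library, so start sequences are shown for Flt3 and Csf3r, on which the results turn, and for the other receptors that held the searched PU.1 motif. Starts and sequences are those of RefSeq (GRCm38.p6), from 250 bases before to 50 bases after the start, and 7 of the 9 genes matched an entry; Csf1r and Csf2rb did not. Capitals mark GAGGAA on either strand, the core bound by the myeloid factor PU.1. The sequences lie at chr5:147400440-147400739 (minus strand, Flt3), chr4:126024409-126024708 (plus strand, Csf3r), chr19:61228369-61228668 (minus strand, Csf2ra) and chr3:89913147-89913446 (minus strand, Il6ra).
Flt3: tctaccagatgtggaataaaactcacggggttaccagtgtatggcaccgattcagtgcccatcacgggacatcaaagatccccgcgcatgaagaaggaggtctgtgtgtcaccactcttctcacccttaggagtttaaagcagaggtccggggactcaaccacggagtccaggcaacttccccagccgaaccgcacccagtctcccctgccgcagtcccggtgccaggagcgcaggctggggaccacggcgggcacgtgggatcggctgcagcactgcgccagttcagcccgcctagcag
Csf3r: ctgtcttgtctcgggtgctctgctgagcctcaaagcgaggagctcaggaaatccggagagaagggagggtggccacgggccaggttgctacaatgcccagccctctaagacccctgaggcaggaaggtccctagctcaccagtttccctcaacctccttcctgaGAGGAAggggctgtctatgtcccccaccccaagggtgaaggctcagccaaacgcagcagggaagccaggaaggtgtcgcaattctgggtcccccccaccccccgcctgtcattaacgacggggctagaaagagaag
Csf2ra: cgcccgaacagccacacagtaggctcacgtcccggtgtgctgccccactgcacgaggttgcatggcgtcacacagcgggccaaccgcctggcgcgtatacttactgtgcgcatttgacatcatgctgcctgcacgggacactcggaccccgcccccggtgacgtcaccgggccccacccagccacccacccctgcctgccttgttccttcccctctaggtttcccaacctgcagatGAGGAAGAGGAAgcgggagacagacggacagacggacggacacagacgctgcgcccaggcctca
Il6ra: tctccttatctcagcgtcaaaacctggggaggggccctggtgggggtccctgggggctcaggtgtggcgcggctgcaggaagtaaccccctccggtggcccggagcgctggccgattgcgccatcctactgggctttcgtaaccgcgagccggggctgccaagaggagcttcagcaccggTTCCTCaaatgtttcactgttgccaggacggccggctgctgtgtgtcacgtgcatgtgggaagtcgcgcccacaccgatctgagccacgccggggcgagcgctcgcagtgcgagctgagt
With positions counted back from the start, GAGGAA was found in Csf3r at -86 to -81, in Csf2ra at -14 to -9 and again at -8 to -3, and in Il6ra on the opposite strand at -70 to -65. It was in 3 of the 7 receptor sequences and in 28.3% of 32851 promoter sequences of the same length. TTGCNNAA, a C/EBP motif, was in 1 of 7, Il3ra, at -134 to -127, against 10.8% of all. TGTGGT (RUNX) was in none of the 7, against 16.8% of all, with both strands searched and no overlap between different motifs. By base composition these starts were rich in G and C, from 60.3% in Ifngr1 to 74.3% in Il3ra, against a median of 52.7% over all promoters. CpG pairs numbered 9 in Csf3r, the fewest, and 35 in Il3ra, against a median of 7.

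**Figure D1:**
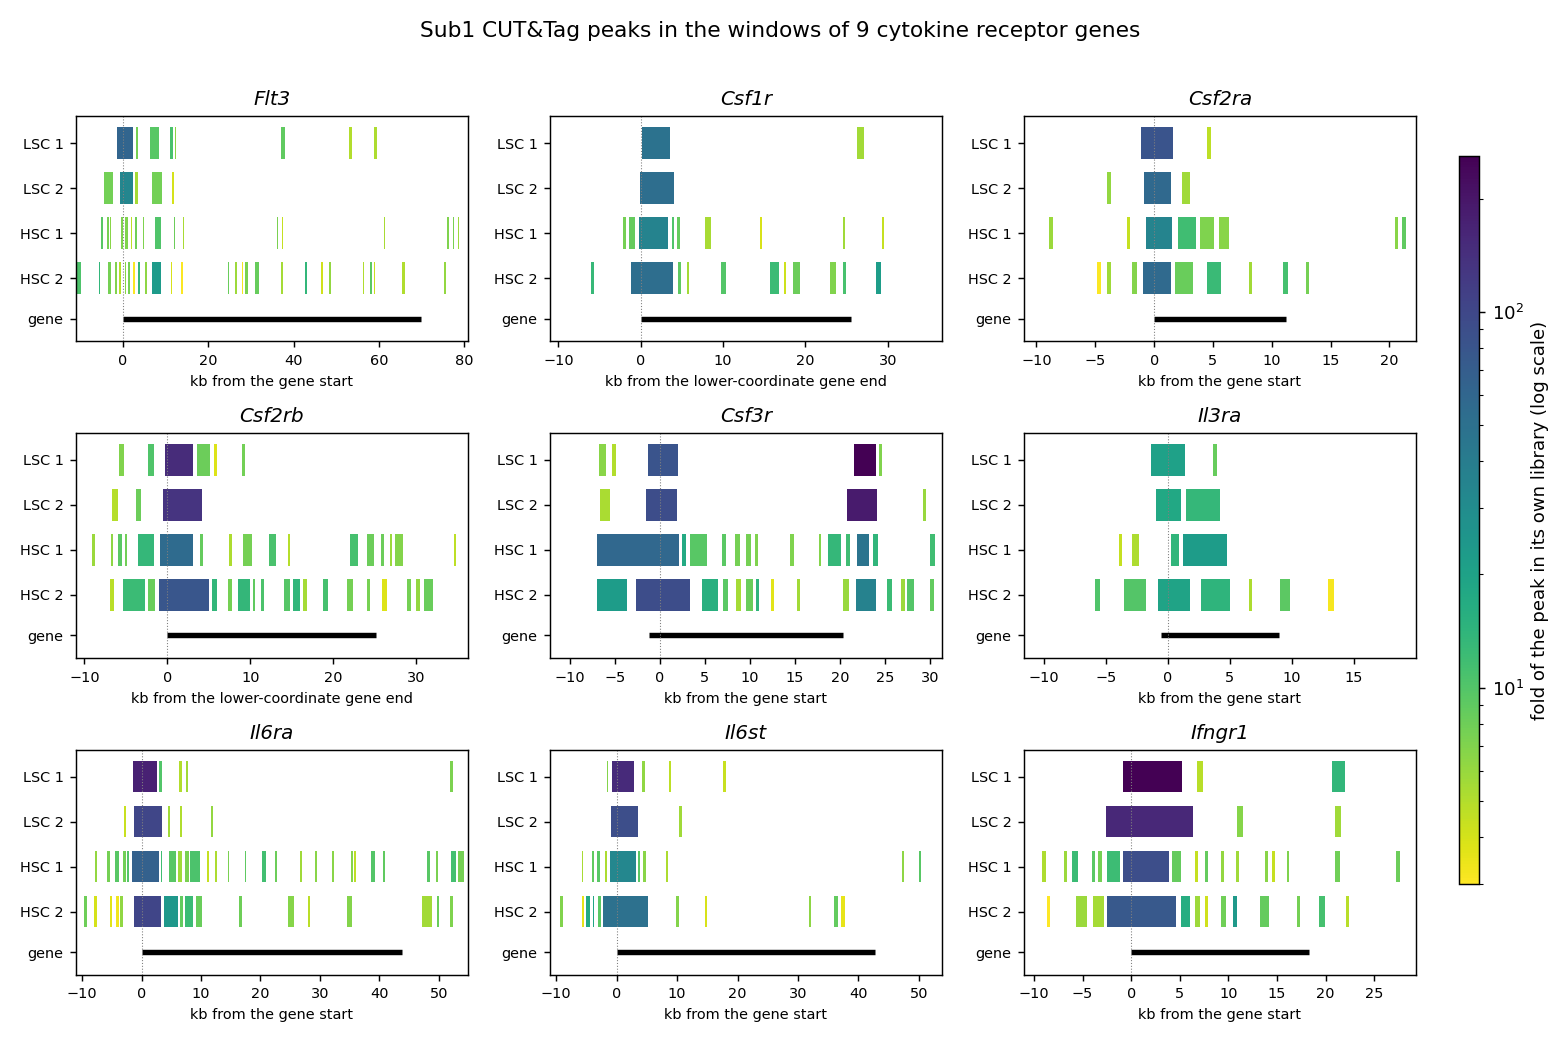
Each panel shows 1 receptor gene, with peaks of LSC 1, LSC 2, HSC 1 and HSC 2 from top to bottom as bars along the distance in kb from the gene start (for Csf1r and Csf2rb, from the gene end of lower coordinate). Colour gives the fold of a peak over the background of its own library on a log scale, and the black line is the gene body. A broad peak lies at the start of every gene in both LSC libraries, and the HSC libraries have 124 and 129 peaks in all, with a median width of 410 and 519 bp. At Flt3 the broad start peak is present in LSC 1 and LSC 2, and several short peaks of lower fold lie there in HSC 1 and HSC 2.

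The LSC libraries carried fewer Sub1 peaks than the HSC libraries at all 9 receptor genes. Each gene kept a peak at its start, and these start peaks made up 9 of the 38 peaks in LSC 1 and 9 of the 28 in LSC 2. The count per gene ran from 1 to 8 in LSCs and from 4 to 28 in HSCs. At Il6ra there were 5 and 5 peaks in LSC 1 and LSC 2, against 28 and 17 in HSC 1 and HSC 2. At Csf1r there were 2 and 1 in LSC 1 and LSC 2, against 9 and 11 in HSC 1 and HSC 2. The groups did not overlap at any of the 9 genes. Of all protein-coding genes, 63.8% had fewer peaks in both LSC libraries and 0.114% had more, so fewer peaks were the common case in these lists. Summed over the windows, the log2 number of peaks was 5.03 ± 0.31 in LSCs and 6.98 ± 0.04 in HSCs (SD, n = 2 each), a ratio of LSC to HSC geometric means of 0.258. Peaks covered 11.9% and 12.6% of the windows in LSC 1 and LSC 2, against 21.2% and 27.4% in HSC 1 and HSC 2. The covered share was smaller in both LSC libraries at 8 of the 9 genes (53.9% of all genes, with 0.827% larger), and at Flt3 the groups overlapped. For both measures p was 0.33 by exact permutation (two-sided), the smallest value that 2 libraries against 2 allow, and this limit holds for every group comparison here. In lists cut to the 34185 strongest peaks of each library, the size of the shortest, the windows held 29 and 28 peaks in LSCs against 40 and 32 in HSCs, and 1 gene, Csf3r, kept fewer peaks in both LSC libraries (7.74% of all genes), while Flt3 had more (8.66% of all genes).

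**Figure D2:**
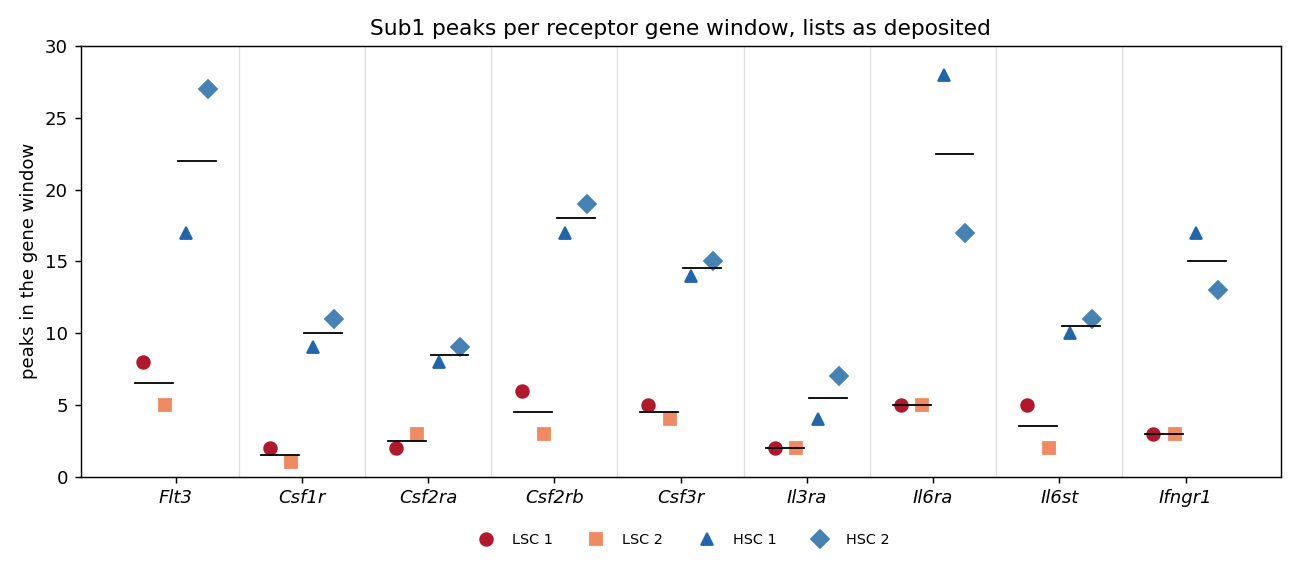
The y axis gives the number of peaks in the window of each receptor gene in the lists as deposited, with 1 symbol per library and a line at the mean of each group. LSC 1 and LSC 2 lie below HSC 1 and HSC 2 at every gene, by 3.5 peaks on average at Il3ra and 17.5 at Il6ra.

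Receptor windows were dense in peaks in all 4 libraries. Each of the 9 held at least 1 peak in every library, as did 66.3% and 62.1% of all protein-coding genes in LSC 1 and LSC 2, 74.5% and 90.4% in HSC 1 and HSC 2, and 60.6% in all 4. They held 8.48 and 6.25 peaks per 100 kb in LSC 1 and LSC 2, against 2.76 and 2.37 over the windows of all protein-coding genes. In HSC 1 and HSC 2 they held 27.7 and 28.8 per 100 kb, against 7.53 and 13.0. Every receptor gene had a peak within 1 kb of its start in every library, a position called the start peak here (for Csf1r and Csf2rb, within 1 kb of either annotated end). Of all protein-coding genes, 54.3% and 51.9% had one in LSC 1 and LSC 2, 55.9% and 64.1% in HSC 1 and HSC 2, and 48.6% in all 4. In lists of 34185 peaks it was kept at 9 and 9 receptors in LSC 1 and LSC 2 and at 8 and 8 in HSC 1 and HSC 2, with Flt3 missing. Of all genes, 53.6% and 51.9% had one there in the LSC libraries, 48.1% and 47.9% in the HSC libraries and 44.3% in all 4. The start peak was the strongest of the window at 8 and 8 of the genes in LSC 1 and LSC 2, and at 7 and 8 in HSC 1 and HSC 2. It was wider than 2 kb at 9 and 8 genes in the LSC libraries and at 7 and 8 in the HSC libraries. The median width was 648 and 920 bp over all LSC peaks in these windows and 410 and 519 bp over all HSC peaks. Strength and width of start peaks were not counted in this way over all protein-coding genes, so neither can be called particular to receptors.

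To compare start peaks across libraries whose folds are not on 1 scale, each gene was ranked within its library by the fold of its start peak among the 10647 genes with a start peak in all 4 libraries. The rank is given as the percent of those genes at or below it, so that 100 is the strongest. This measure was chosen after the values were seen. Of the 9 receptors, Flt3 alone ranked higher in both LSC libraries than in both HSC libraries (23.8% of all ranked genes did). The 6 genes Csf1r, Csf2ra, Csf2rb, Csf3r, Il3ra and Il6ra, ranked lower in both (23.1% of all ranked genes), and Il6st and Ifngr1 overlapped. Without HSC 2 or without LSC 2 the count of higher genes was 2, with Il6st added.

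**Figure D3:**
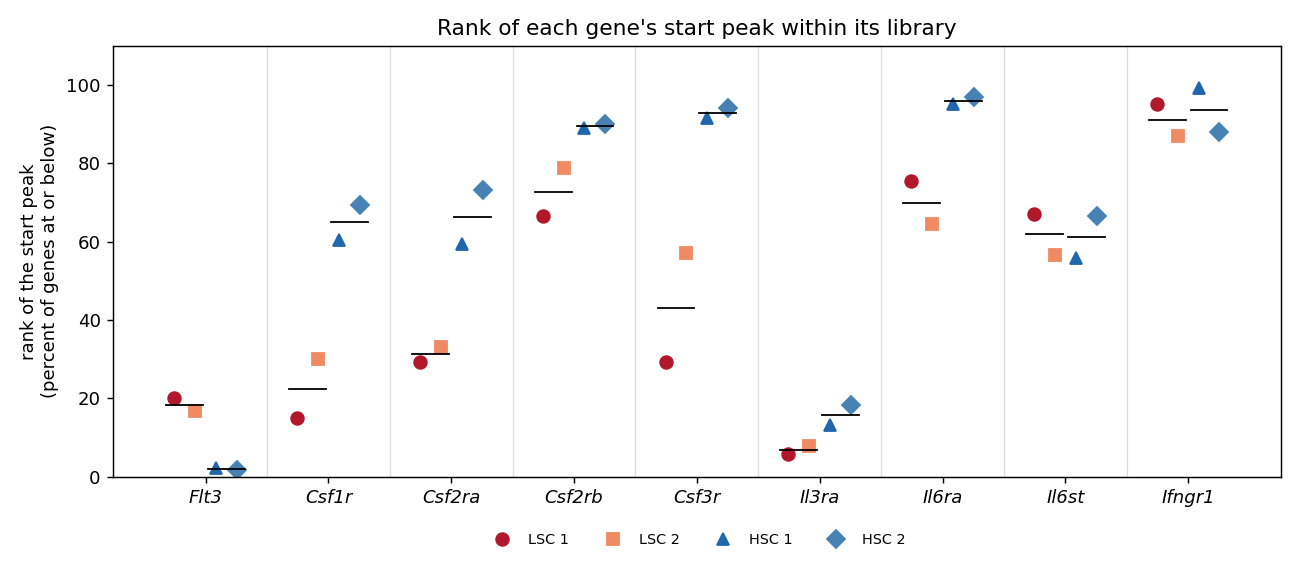
The y axis gives the rank of each receptor gene's start peak within its library, in percent of 10647 genes at or below it, with 1 symbol per library and a line at the mean of each group. Flt3 lies at 20.1 and 16.7 in LSC 1 and LSC 2 and at 2.1 and 1.6 in HSC 1 and HSC 2, and Csf3r lies at 29.2 and 57.2 in the LSC libraries and at 91.7 and 94.2 in the HSC libraries.

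Flt3, the receptor tyrosine kinase of early progenitors, had a start peak of higher rank in both LSC libraries, though low in the list of genes in all 4. Its fold over the library's own background was 61.5 and 33.8 in LSC 1 and LSC 2, against 7.12 and 6.61 in HSC 1 and HSC 2. Folds are not on 1 scale across libraries, and the median start peak over all genes had 109 and 76.1 in the LSC libraries, against 27.5 and 29.5 in the HSC libraries. The Flt3 folds stand for 340 and 185 overlapping fragments at the summit in the LSC libraries and 28 and 55 in the HSC libraries. In LSCs the start peak was a single block of 3965 and 2993 bp, from 147398072 to 147402036 on chromosome 5 in LSC 1, and its summit lay 411 and 586 bases after the start in LSC 1 and LSC 2. In HSCs the same stretch was broken into separate short peaks. Those taken as start peaks, by their fold within 1 kb of the start, were 609 and 360 bp wide. In HSC 1 another peak of fold 7.12 lay over the start itself, from -0.518 to 0.024 kb. The highest fold anywhere in the joined start region, from 147396544 to 147402354, was 7.86 in HSC 1 and 13.2 in HSC 2. The non-coding gene Gm26597 overlaps this joined region, so its peaks cannot be assigned with certainty to 1 of the pair. The rank was 18.4 ± 2.45 in LSCs and 1.83 ± 0.365 in HSCs (SD, n = 2 each). The gap between the nearest libraries of the groups ran from 2.1 in HSC 1 to 16.7 in LSC 2. A gap of that kind and direction at least as large was seen at 4.46% of ranked genes. Among the 34185 strongest peaks per library the Flt3 start peak was present in LSC 1 and LSC 2 and missing from both HSC lists, as were those of 2.9% of all protein-coding genes.

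Inside Flt3 the order of peaks turned round between the groups. The pair of peaks compared here was chosen after their values were seen, so their ratio is a description with no test. A region about 7.8 kb after the start, from 147391320 to 147394146 on chromosome 5, held a peak in all 4 libraries. Its fold was 9.56 and 7.81 in LSC 1 and LSC 2, and 10.3 and 22.7 in HSC 1 and HSC 2. It was the strongest peak of the window in both HSC libraries, with its summit 8710 and 8613 bases after the start, and was far below the start peak in both LSC libraries. The log2 ratio of the start peak to this region, taken within each library, was 2.69 and 2.11 in LSC 1 and LSC 2, against -0.53 and -1.78 in HSC 1 and HSC 2. The means were 2.40 ± 0.41 in LSCs and -1.16 ± 0.88 in HSCs (SD, n = 2 each), a difference of 3.56. HSC 2 also had weak peaks spread along the gene. HSC 1 had none from 14.232 to 36.143 kb or from 37.506 to 61.151 kb after the start. The number of summits inside Flt3 was 8 and 4 in LSC 1 and LSC 2, against 10 and 21 in HSC 1 and HSC 2.

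Csf3r, the G-CSF receptor that drives granulocyte production, moved the other way. Its start peak had folds of 81.5 and 91.4 in LSC 1 and LSC 2 and of 58.9 and 91.5 in HSC 1 and HSC 2. These folds stood high in the HSC lists, at ranks of 91.7 and 94.2. In the LSC lists they stood lower, at 29.2 in LSC 1 and 57.2 in LSC 2. The rank was 43.2 ± 19.8 in LSCs and 92.9 ± 1.81 in HSCs (SD, n = 2 each), a difference in means of -49.7 percentage points. The gap between the nearest libraries of the groups was narrower, from 57.2 in LSC 2 to 91.7 in HSC 1. A gap of that kind and direction at least as wide was seen at 1.17% of ranked genes. With all protein-coding genes ranked, those without a start peak at 0, the difference was -24.2. The start peak was narrower in LSCs, at 3313 and 3425 bp, than in HSCs, at 9155 and 6010 bp. In HSC 1 it reached back to 126017654 on chromosome 4, and the start region joined over the 4 libraries overlaps the non-coding gene Gm32908. Peaks covered 17.4% and 19.8% of the Csf3r window in LSC 1 and LSC 2, against 43.4% and 46.1% in HSC 1 and HSC 2. In 5 of the 17 regions of the window HSC 1 and HSC 2 had a peak and the LSC libraries had none, against 9.17% of the regions of all gene windows. Of these 5 regions, 4 lay inside Csf3r from 7.2 to 10.8 kb after the start.

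The neighbour of Csf3r gave a comparison within each library, also chosen after the values were seen and given with no test. Mrps15, which encodes a protein of the mitochondrial ribosome, begins 2.0 kb beyond the high end of Csf3r, and its start peak lies in the Csf3r window. That peak had folds of 260 and 189 in LSC 1 and LSC 2, the strongest of the window, and 46.4 and 35.9 in HSC 1 and HSC 2, below the Csf3r start peak. Mrps15 ranked at 95.2 and 94.1 in the LSC libraries and at 79.9 and 45.5 in the HSC libraries. Within each library, the log2 ratio of the Csf3r to the Mrps15 start peak was -1.67 and -1.05 in LSC 1 and LSC 2, against 0.34 and 1.35 in HSC 1 and HSC 2. The groups did not overlap (means -1.36 ± 0.44 in LSCs and 0.85 ± 0.71 in HSCs, SD, n = 2 each).

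**Figure D4:**
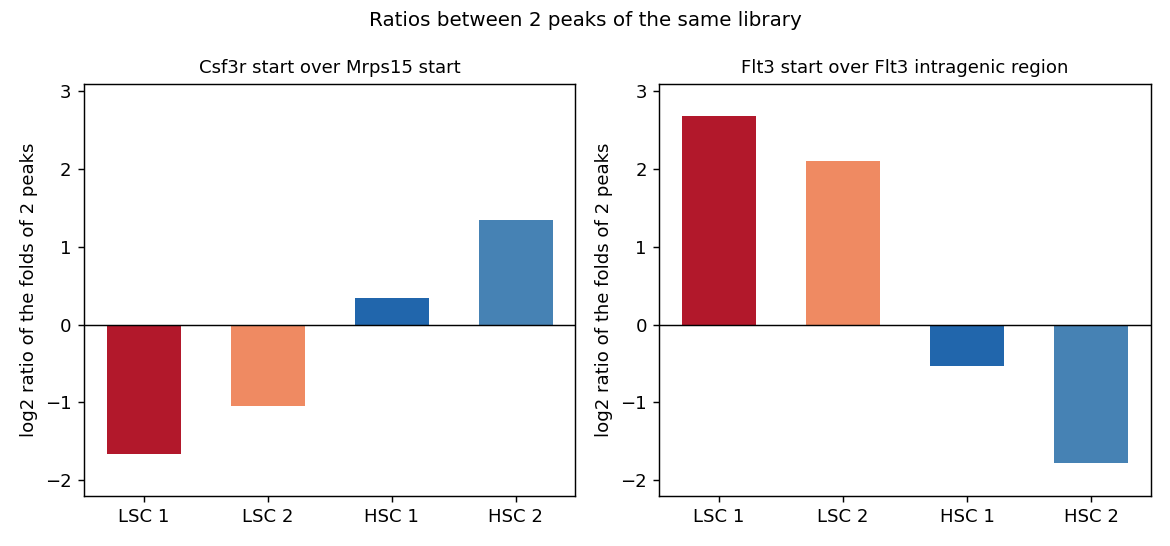
Bars give the log2 ratio of the folds of 2 peaks measured in the same library, on the left the Csf3r start peak over the Mrps15 start peak and on the right the Flt3 start peak over the region about 7.8 kb inside Flt3. Both ratios change sign between the groups: the left is -1.67 and -1.05 in LSC 1 and LSC 2 and 0.34 and 1.35 in HSC 1 and HSC 2, and the right is 2.69 and 2.11 in the LSC libraries and -0.53 and -1.78 in the HSC libraries.

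Mature neutrophil genes ranked in the same direction as Csf3r. Of 10 neutrophil marker genes (S100a8, S100a9, Ltf, Ngp, Camp, Cxcr2, Mmp8, Mmp9, Padi4 and Retnlg), 8 and 8 had a start peak in LSC 1 and LSC 2, and 10 and 10 in HSC 1 and HSC 2. All 7 that could be ranked were lower in both LSC libraries (23.1% of all ranked genes), with a median rank of 2.6 and 14.8 in LSC 1 and LSC 2 and of 44.6 and 42.1 in HSC 1 and HSC 2. Monocyte and macrophage genes ranked lower in both LSC libraries at 3 of 5, with medians of 17.3 and 20.0 in LSCs and 27.1 and 62.6 in HSCs. Of 5 B cell genes, a start peak was found at 1 and 1 in LSC 1 and LSC 2 and at 4 and 5 in HSC 1 and HSC 2, and of 6 T and NK cell genes at 0 and 0 in the LSC libraries and 2 and 5 in the HSC libraries. In lists of 34185 peaks these counts were 1 and 1 in LSCs against 2 and 2 in HSCs for B cell genes, and 0 and 0 in LSCs against 0 and 2 in HSCs for T and NK cell genes. Of 4 erythroid genes 2 and 1 had one in LSCs and 3 and 2 in HSCs, and in lists of 34185 peaks 1 and 1 in LSCs and 1 and 2 in HSCs. Of all protein-coding genes, 54.3% and 51.9% had a start peak in LSC 1 and LSC 2, and 55.9% and 64.1% in HSC 1 and HSC 2. In lists of 34185 peaks these shares were 53.6% and 51.9% in LSCs and 48.1% and 47.9% in HSCs. The part of cells of these lineages in the receptor values was not tested. Of the sorting markers, Ly6a (Sca-1) had a start peak in HSC 1 and HSC 2, of fold 9.33 and 12.2, and in no LSC list. Slamf1 (CD150) had window peaks in the HSC libraries alone, 1 in HSC 1 and 10 in HSC 2, as had 8.59% of all protein-coding genes. Cd34 had start peaks of fold 127 and 49.1 in the LSC libraries, none in HSC 1 and 1 of fold 4.72 in HSC 2. Other sorting markers did not follow the gates: Fcgr3 (CD16) ranked at 51.6 and 66.4 in LSC 1 and LSC 2, against 68.8 and 85.8 in HSC 1 and HSC 2, and Fcgr2b (CD32) overlapped between groups. Kit, part of both gates, ranked at 33.0 and 57.1 in LSC 1 and LSC 2, against 9.4 and 22.9 in HSC 1 and HSC 2 (23.8% of all ranked genes were higher in both LSC libraries). Of the other HSC genes listed, Procr had a start peak in LSC 1 and both HSC libraries, and Mecom and Hlf had none in any library.

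Csf1r, the M-CSF receptor of the monocyte lineage, had little beyond its start peak in the LSC lists as deposited. LSC 2 had that peak alone in the window, and LSC 1 had 1 more, of fold 5.59. HSC 1 and HSC 2 had 9 and 11 peaks there. Fewer peaks in both LSC libraries were also found at 63.8% of all protein-coding genes. In lists cut to equal size the groups overlapped at Csf1r. The window then held 2 and 1 peaks in LSC 1 and LSC 2, and 2 and 4 in HSC 1 and HSC 2. The start peak had folds of 48.7 and 52.9 in LSC 1 and LSC 2 and of 35.1 and 53.0 in HSC 1 and HSC 2, and spanned 3427, 4165, 3645 and 5139 bp in the same order. It lay at the end of lower coordinate, from 61105724 to 61109150 on chromosome 18 in LSC 1. The rank was 22.5 ± 10.6 in LSCs and 65.0 ± 6.33 in HSCs (SD, n = 2 each). In HSC 2 a further peak, of fold 22.1, lay in the window, in the stretch that also holds Hmgxb3, and no other library had a peak overlapping it.

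The GM-CSF and IL-3 receptors share the chain Csf2rb, and their chains stood at different ranks. Csf2rb had the strongest start peak of this group, with folds of 151 and 132 in LSC 1 and LSC 2 and of 55.3 and 79.4 in HSC 1 and HSC 2. Its rank was 72.6 ± 8.63 in LSCs and 89.5 ± 0.734 in HSCs (SD, n = 2 each). Csf2ra, the GM-CSF chain, ranked at 29.4 and 33.2 in LSC 1 and LSC 2, against 59.5 and 73.1 in HSC 1 and HSC 2, with a start peak of 2223 to 2742 bp that hardly changed in width. Il3ra, the IL-3 chain, was the weakest of the receptors in LSCs, at 5.7 and 7.9, against 13.2 and 18.4 in HSC 1 and HSC 2. In HSC 1 its strongest peak lay 3776 bases after the start, with a fold of 22.6, and the start peak itself had 14.0. Folds of the Il3ra start peak were 20.7 and 18.0 in LSC 1 and LSC 2 and 19.7 in HSC 2.

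Csf2rb has a close relative beside it, Csf2rb2, which in mice encodes a second beta chain for IL-3. Csf2rb2 had start peak folds of 19.3 and 22.9 in LSC 1 and LSC 2 and of 26.3 and 34.5 in HSC 1 and HSC 2, with ranks of 5.2 and 10.5 in LSCs against 39.8 and 43.2 in HSCs. Its window held 1 and 1 peaks in the LSC libraries and 12 and 16 in the HSC libraries. Handling of reads that match both genes is not given, so values of this pair are uncertain.

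The IL-6 receptor chains differed from each other. Il6ra, the IL-6-binding chain, ranked at 75.6 and 64.4 in LSC 1 and LSC 2, against 95.1 and 96.9 in HSC 1 and HSC 2, with start peak folds of 172 and 102 in the LSC libraries and 65.8 and 105 in the HSC libraries. The width of that peak was alike in all libraries, 4052 and 4698 bp in LSCs and 4461 and 4544 bp in HSCs. In the lists as deposited, 6 of the 30 regions of the Il6ra window had a peak in each HSC library and none in LSCs. Such regions numbered 5 of 17 at Csf3r, 5 of 18 at Ifngr1 and 5 of 22 at Csf2rb. They made up 9.17% of the regions of all gene windows. In lists cut to equal size they numbered 0 over the receptor windows. The Il6ra window then held 4 and 5 peaks in LSC 1 and LSC 2, and 10 and 3 in HSC 1 and HSC 2. These counts overlapped between the groups. Il6st, the common signalling chain of the IL-6 family, ranked at 67.0 and 56.7 in LSC 1 and LSC 2, and at 55.8 and 66.5 in HSC 1 and HSC 2, so the groups overlapped (61.8 ± 7.29 in LSCs and 61.1 ± 7.54 in HSCs, SD, n = 2 each, exact permutation p = 0.67). Its start peak had folds of 152 and 90.7 in the LSC libraries and 32.9 and 50.4 in the HSC libraries.

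Ifngr1, the ligand-binding chain for interferon-gamma, carried the strongest start peak of the receptor genes in 3 of the libraries. Its rank was 95.1 and 87.1 in LSC 1 and LSC 2, against 99.3 and 87.9 in HSC 1 and HSC 2, and the groups overlapped (exact permutation p = 0.67). Folds were 259 and 157 in the LSC libraries and 90.6 and 75.6 in the HSC libraries. The summit lay 14 bases before the annotated start (position -14) in LSC 1, LSC 2 and HSC 1 and at -12 in HSC 2, and none of the other 6 receptors with an annotated start placed it within so few bases in every library. At Csf2ra, for comparison, it lay 250 and 250 bases after the start in LSC 1 and LSC 2 and 844 and 163 in HSC 1 and HSC 2. The Ifngr1 peak was also broad in each library, at 6020 and 9006 bp in LSCs and 4779 and 7121 bp in HSCs.

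Joining peaks of the 4 libraries that overlapped by at least 1 bp gave 171 regions in the receptor windows. None was found in LSC 1 and LSC 2 and missing from HSCs, against 0.35% of the regions of all gene windows. In HSC 1 and HSC 2 but no LSC library there were 28 regions, 16.4% of the total, against 9.17% of the regions of all gene windows. In all 4 libraries there were 13, or 7.6%, against 6.9%. Of these 13, 9 lay at the gene starts, 1 for each receptor, and the other 4 lay inside Flt3, inside Il6ra, before Csf2rb and at the border of Csf3r and Mrps15. A single library held 114 of the 171 regions, of which HSC 1 had 46 and HSC 2 had 60. Without HSC 1 the count of 28 was 91, and without HSC 2 it was 81, since 1 remaining library then decides; the count of 0 was 5 without LSC 2, 3 without LSC 1 and 1 without either HSC library. In lists of 34185 peaks per library the counts were 3 in LSCs alone and 0 in HSCs alone of 59 regions, against 5.7% and 2.91% over all gene windows, and 11 lay in all 4 libraries, against 20.3%. The 3 were the Flt3 start, a region inside Flt3 from 147388628 to 147389463 and a region beyond the Ifngr1 gene from 19612662 to 19613915.

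Genes of the same signalling routes were taken from lists by role. All 25 signalling genes, such as Jak1, Jak2, Stat3, Stat5a and Grb2, had a start peak in every library, and 9 of them ranked lower in both LSC libraries (23.1% of all ranked genes), Jak2 among them at 30.5 and 43.2 in LSC 1 and LSC 2 and 43.4 and 57.6 in HSC 1 and HSC 2. Bcl2l1 and Shc1 ranked higher in both (23.8% of all ranked genes). Of 16 feedback genes, 16 and 16 had a start peak in LSC 1 and LSC 2 and 15 and 15 in HSC 1 and HSC 2, the difference being Socs2, a Stat5-induced inhibitor of cytokine signalling, with folds of 24.7 and 10.9 in the LSC libraries. Of the 15 that could be ranked, 6 were lower in both LSC libraries and Spry2 alone was higher, against the same 23.1% and 23.8%. Socs3, which restrains Csf3r and Il6st signalling, had ranks of 5.9 and 1.8 in LSC 1 and LSC 2, against 76.3 and 83.4 in HSC 1 and HSC 2, a gap wider than that of any of the 9 receptors. Spry2, Bcl2l1, Shc1, Jak2 and Socs3 were picked out after their values were seen.

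Other cytokine receptors and the ligands were listed too. Of 31 further receptor genes, 20 and 18 had a start peak in LSC 1 and LSC 2 and 18 and 24 in HSC 1 and HSC 2, beside 54.3% and 51.9% of all genes in the LSC libraries and 55.9% and 64.1% in the HSC libraries. In lists of 34185 peaks it was 20 and 18 in LSCs and 15 and 14 in HSCs. Of the 17 that could be ranked, 9 were lower in both LSC libraries (23.1% of all ranked genes), among them Ifngr2, the partner chain of Ifngr1, and Kit alone was higher, at 33.0 and 57.1 in LSCs against 9.4 and 22.9 in HSCs. Il12rb2, Ghr, Osmr, Il7r and Il2rb had window peaks in both HSC libraries and no peak in either LSC library, as had 8.59% of all protein-coding genes, and no further receptor showed the opposite (0.0274% of all genes). Of 15 ligand genes, 5 and 4 had a start peak in LSC 1 and LSC 2 and 11 and 9 in HSC 1 and HSC 2. In lists of 34185 peaks the ligand counts were 5 and 4 in LSCs and 4 and 4 in HSCs. In the lists as deposited, Epo, Ifng, Il5, Csf2 and Thpo had one in HSC 1 and HSC 2 and in no LSC list, with folds from 3.19 to 7.79. Il3 joined Epo, Ifng and Csf2 in having window peaks in HSCs alone (8.59% of all protein-coding genes). The share of all genes with a start peak in 1 group alone was not computed for these lists, so such calls, also at Ly6a and Socs2, have no background.

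The genes nearest to each receptor in the rank of their strongest window peak, by the sum of absolute log10 differences over the 4 lists of 34185 peaks, were Map2k6 for Flt3 (distance 0.051), Slc34a1 for Il3ra (0.087), Lipe for Csf2ra (0.094) and Srebf1 for Il6st (0.099). For Csf1r it was Arl15 (0.106), for Csf2rb Parp14 (0.127), for Csf3r Stpg3 (0.199), for Il6ra Pisd (0.396) and for Ifngr1 Cmip (0.406). With 4 libraries such a likeness describes these lists and no more. For Flt3 the strongest window peak stood at place 8277 and 8855 in LSC 1 and LSC 2 and at place 25401 and 9771 in HSC 1 and HSC 2, and Map2k6 stood at 7744 and 8855 in the LSC libraries and at 25401 and 10278 in the HSC libraries.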

How the data were processed

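CUT&Tag with an antibody against Sub1 was run on 2 LSC and 2 HSC libraries, with 1 deposited peak list each. The submitters' processing notes name the mm10 build, Bowtie2 (2.2.9), MACS2, ChIPseeker and FastQC (0.11.5), with no settings. Handling of duplicates and any control library is not given in the sources used here. Peak names carry an unexplained prefix, H4-Cut, so the target rests on the labels. In the deposited lists the fold is a ratio of pileup to background, and the authors' -log10 p, -log10 q and score (about 10 times -log10 q) accompany it. Fold is the authors' value, compared directly only between peaks of 1 library, except in the alternative that kept peaks of fold at least 20 in every library. Folds below 100 were whole multiples of 1 step per library for 100% of peaks (tolerance 0.02 fragments), which gives the fragments at a summit and a background of 4.54 and 4.5 in LSC 1 and LSC 2 and 3.07 and 7.47 in HSC 1 and HSC 2. Read totals are unknown.

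Windows, start peaks, covered bases, merged regions and ranks were computed with Python 3.11.15, NumPy 2.4.6 and pandas 2.3.3, and tested on simulated data. RefSeq tables gave gene bounds and starts, without exons, so exon, intron and UTR were not told apart. Group values were compared by two-sided exact permutation over 6 assignments. Of the listed other genes, 1 of 26 signalling symbols, Lnk, had no match. Named were all receptors, listed genes found in 1 group alone, and 1 nearest gene each. Receptors and lists were chosen with earlier results of these data known. Alternatives changed the peak threshold, list length, window, overlap and libraries. The result of 1 further motif search is not reported here.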

Additional observations from a re-analysis of the deposited data

How the results depend on the processing

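The lower number of peaks in LSC receptor windows kept its direction under every alternative run, with a log2 difference from -2.18 to -1.73 on leaving out 1 library, -0.33 in equal-sized lists and -0.19 among peaks of fold at least 20, where the groups overlapped. The covered share, -12.09 percentage points as deposited, kept its direction, from -15.2 to -8.97 on leaving out 1 library, but came to -2.9 in equal-sized lists, -1.34 at a fold of at least 20 and -1.06 in equal-sized lists of 17092 peaks, with overlapping groups in the last 2 (exact permutation p = 0.67). Ranking equal-sized lists by fold or by -log10 p gave the same values, since both follow the same pileup, so this is no separate check. Start peaks, level at 9 genes a library in the deposited lists, differed by 1.5 genes (LSC minus HSC) at a fold of at least 20 and by 1 gene in equal-sized lists, full or 17092 peaks long. Genes with fewer peaks in both LSC libraries, 9 as deposited, numbered 0 at a fold of at least 20 and 1 in the equal-sized lists of either length or ranking. At Flt3 the mean peak count was then higher in LSCs, by 0.5 peaks at a fold of at least 20, by 2.5 in equal-sized lists and by 2 in the shorter ones. Regions in LSCs alone, 0 as deposited, numbered 1 at a fold of at least 20, 3 in equal-sized lists by either ranking, 1 in the shorter lists, 3 with an overlap of 50% of both peaks, and from 1 to 5 on leaving out 1 library. Regions in HSCs alone, 28 as deposited, numbered 0 at a fold of at least 20 and in the equal-sized lists, 15 in gene bodies without the extension and from 34 to 91 on leaving out 1 library. Fewer peaks enter under the stricter lists, which removes the weak HSC peaks by construction. A fold of 20 is also not the same cut in each library. The median start peak over all genes had a fold of 109 and 76.1 in LSC 1 and LSC 2, against 27.5 and 29.5 in HSC 1 and HSC 2. Group differences at that cut, such as those in start peaks and at Flt3, therefore cannot be told apart from the difference in scale. Read depth is unknown, and a peak missing from a short list may lie below its threshold.

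Of 4 other rankings tried, that by -log10 p follows the same pileup as fold, so it could not differ and is no separate check. In all, 6 receptors ranked lower in both LSC libraries under each of the 4, and 6 to 7 on leaving out 1 library. The 1 ranked higher, Flt3, could not be ranked in equal-sized lists, where its HSC start peak is missing and the count is 0, and the count was 1 to 2 on leaving out 1 library. With same-numbered libraries as pairs (replicate block), the log2 difference in peaks was -1.96, in covered share -12.09 and in start peaks 0, with p = 0.5 for the first 2 values in an exact sign-flip permutation, the smallest that 2 pairs allow. The 1-minus-2 differences of the groups correlated at -0.124 in peaks per gene over 21887 genes and at 0.329 in ranks over 10647, and crossing the pairs, added after the data were seen, also made 0 calls. The Csf3r rank difference of -49.7 was -24.2, and that of Flt3 of 16.6 was 13.7, with all protein-coding genes ranked. Alternatives for the ranks were added after the data were seen.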
